A study of Mus musculus with 9 samples.

Results

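The genes followed here, 9 markers of regenerating and fetal-like intestinal epithelium, were measured in 9 libraries of mouse intestinal epithelium: Ly6a, Clu, Anxa1, Anxa3, Plaur, Marcksl1, Il33, Msln and Il1rn. They were taken by gene symbol from a deposited table of 24930 symbols, and all 9 were found in it. Poly(A) RNA had been sequenced in pairs of reads from 2 mutant sets and a control set, and each set holds a library from each of days 8, 9 and 10. The sets are called here by their titles, Bcathet, Cdx2het_Bcathet and control. By its title the Bcathet set is heterozygous for a mutant allele of β-catenin, and the Cdx2het_Bcathet set is so for that allele and for one of Cdx2, a homeobox factor of intestinal identity. The library names say the reverse: they give CDX2HET_EXON3 for the set titled Bcathet and EXON3 for the set titled Cdx2het_Bcathet, so which set carries the Cdx2 allele cannot be told from the labels. Both sets of names place the β-catenin allele in all 6 mutant libraries and in no control library. The Cre driver, the strain, the age of the mice, what the days are counted from and whether each library came from its own animal are not stated in the labels. The p-values therefore speak for these libraries and their spread.

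After injury, infection or irradiation, the crypt epithelium can lose its resting stem cell programme for a time and switch on genes of the fetal gut. Ly6a (Sca-1, a small membrane protein held by a lipid anchor) marks that fetal-like epithelium, and Clu (clusterin, a secreted chaperone) marks the rare revival stem cells from which damaged crypts are rebuilt. YAP and interferon signalling are both known to raise such genes. The exon 3 allele of β-catenin yields a protein that escapes degradation and so keeps WNT target genes on in the epithelium.

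Values are FPKM, a fragment count per library set against the length of the transcript, as read from the deposited values. Differences are given as log2 fold changes on log2(FPKM + 1), which understates the change of low genes, with their standard error (SE) and an adjusted p from limma (Benjamini-Hochberg over all tested genes, threshold 0.05). A gene was tested if at least 3 libraries reached 1 FPKM, which 12097 genes did. Of the 9 markers, 6 passed: Ly6a, Clu, Anxa3, Plaur, Marcksl1 and Il33. Clu and Plaur reached 1 FPKM in 1 control library and Anxa3 in 2, and all of them did in all 6 mutant libraries, so these genes passed by way of the group where they were high. Anxa1, Msln and Il1rn did not pass, and were tested only in a fit to all 19704 genes above 0.

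Summed FPKM was 624923 to 755802 per library, which does not measure the size of a library. An estimated 18.1 to 20.6 fragments stood for each FPKM of a transcript with an effective length of 1 kilobase. That estimate used only low values inside a preset window, which limits how far it can differ between libraries. Epcam, an epithelial adhesion protein, ranged over 715 to 794 FPKM in mutant and 703 to 761 FPKM in control libraries, while Cd3e, a T cell receptor subunit, reached at most 3.17 FPKM and Pecam1, an endothelial adhesion protein, at most 0.284. Ctnnb1, which encodes β-catenin, ranged over 211 to 239 FPKM in mutant and 187 to 207 FPKM in control libraries, a level that does not test the allele. The Cdx2het_Bcathet library of day 9 stood apart. Its Xist level was 0.1002 FPKM, against 27.0 to 39.4 in the other 8 libraries, and its sum over 4 Y-linked genes was 41.7 FPKM, against at most 0.0470, so it was the only library of male pattern. On a principal component that held 43.5% of the variance it lay at −19.1, beside the control libraries at −22.7 to −21.6 and away from the other 5 mutant libraries at 2.57 to 30.0. The changes of the markers against control are therefore given with and without that library, and sex cannot be told apart from whatever else set it apart.

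**Figure D1:**
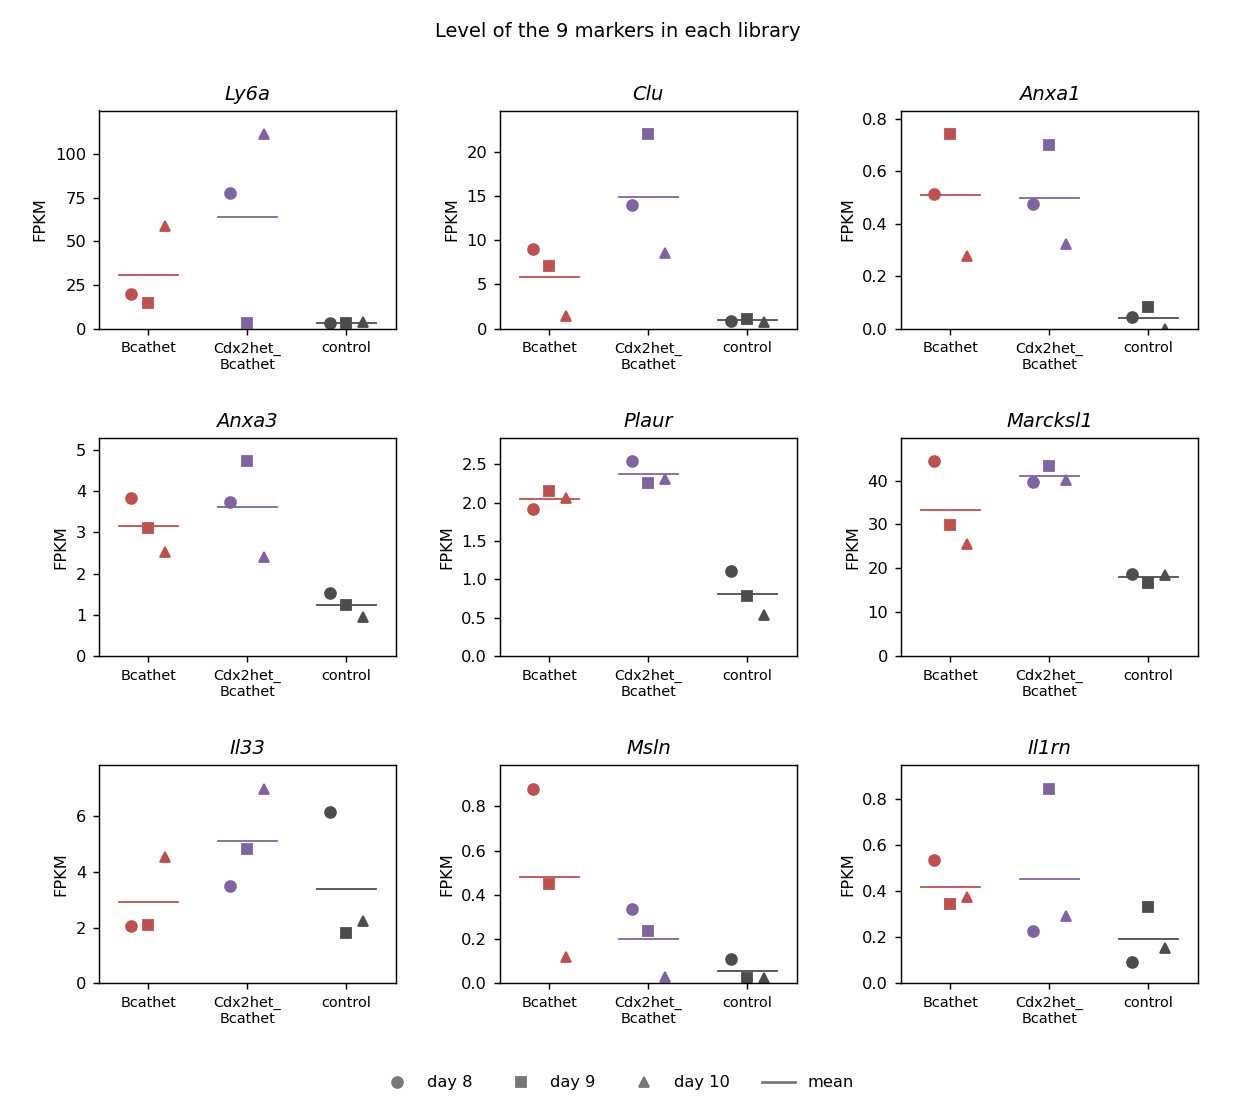
Level of each of the 9 markers (FPKM, linear axes starting at 0) in every library, by set, with day 8 as circles, day 9 as squares, day 10 as triangles and the mean of each set as a line. Ly6a ranged over 14.5 to 111 FPKM in 5 mutant libraries and 3.07 to 3.70 FPKM in control libraries, and was at 3.06 FPKM in the Cdx2het_Bcathet library of day 9, while that same day-9 library held the most Clu, 22.0 FPKM.

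Ly6a had the widest range of the 9. It was at 19.7, 14.5 and 58.8 FPKM in the Bcathet libraries of days 8, 9 and 10, at 77.8, 3.06 and 111 FPKM in the Cdx2het_Bcathet libraries, and at 3.36, 3.07 and 3.70 FPKM in the control libraries. Of the 6 mutant libraries 5 therefore lay above every control library, and the Cdx2het_Bcathet library of day 9 lay just below them all. The mean was 47.6 ± 42.4 FPKM over the mutant libraries (SD, n = 6) and 3.38 ± 0.314 FPKM over the control libraries (SD, n = 3), a ratio of means of 14.1. Because the mutant libraries spread 36.4-fold from lowest to highest, the log2 fold change of 2.77 ± 1.00 (SE) did not pass limma's test (adjusted p = 0.176). Without the day-9 Cdx2het_Bcathet library it was 3.52 ± 0.42 and passed (adjusted p = 0.0119). This was the only one of the 9 libraries whose removal brought Ly6a past the threshold.

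Within the mutant sets, Ly6a averaged 31.0 ± 24.2 FPKM in Bcathet and 64.1 ± 55.5 FPKM in Cdx2het_Bcathet (SD, n = 3 each). Against control, the log2 fold change was 2.61 ± 1.16 in Bcathet (limma adjusted p = 0.312) and 2.92 ± 1.16 in Cdx2het_Bcathet (adjusted p = 0.267). Without the day-9 library the change in Cdx2het_Bcathet was 4.43 ± 0.53, which passed (adjusted p = 0.0151) on the 2 libraries left. The Ly6a transcript is 81.6% to 85.6% identical to those of Ly6i, Ly6g, Ly6c1 and Ly6f over most of its length, so some fragments may have been shared out among these genes. Ly6g reached at most 4.03 FPKM and Ly6c1 at most 2.30 FPKM in any library.

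Clu was at 8.95, 7.09 and 1.42 FPKM in the Bcathet libraries of days 8, 9 and 10, at 14.0, 22.0 and 8.60 FPKM in the Cdx2het_Bcathet libraries, and at 0.925, 1.13 and 0.768 FPKM in the control libraries. All 6 mutant libraries lay above all control libraries, the Bcathet library of day 10 by the least. The mean was 10.3 ± 7.00 FPKM over the mutant libraries (SD, n = 6) and 0.942 ± 0.183 FPKM over the control libraries (SD, n = 3). The log2 fold change of 2.26 ± 0.46 missed the threshold (limma adjusted p = 0.0626). It passed without the day-9 Cdx2het_Bcathet library (2.11 ± 0.46, adjusted p = 0.0426) and without the day-10 Bcathet library (2.58, adjusted p = 0.0190), and not without any of the other 7. The change against control was 1.58 ± 0.53 in Bcathet (adjusted p = 0.213) and 2.94 ± 0.53 in Cdx2het_Bcathet (adjusted p = 0.0610), or 2.63 ± 0.57 without its day-9 library (adjusted p = 0.0561).

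Ly6a and Clu differed in how they ranked the mutant libraries, though the Cdx2het_Bcathet library of day 8 was second-highest for both. The Ly6a level was 2.20, 2.04 and 41.4 times the Clu level in Bcathet libraries of days 8, 9 and 10, 5.56, 0.139 and 13.0 times in Cdx2het_Bcathet libraries, and 3.64, 2.71 and 4.82 times in control libraries. The library with the least Ly6a held the most Clu, and in both mutant sets Clu was lowest and Ly6a highest at day 10. The control set had the same order over narrower ranges, with Clu at 0.768 and Ly6a at 3.70 FPKM at day 10. Over the 6 mutant libraries, the slope of Clu was −0.67 ± 0.25 per day on the log2 scale and that of Ly6a 0.51 ± 0.80 per day, and neither passed limma's test (adjusted p = 0.759 for Clu and 0.875 for Ly6a). The slope in mutant minus that in control libraries was −0.61 ± 0.44 for Clu and 0.46 ± 1.38 for Ly6a. These did not pass limma's test either (adjusted p = 0.865 for Clu and 0.962 for Ly6a). Leaving out the day-9 Cdx2het_Bcathet library could not change the slopes, since day 9 is the middle day and each set has its own mean. For the slope in mutant libraries the SE became 0.21 for Clu and 0.25 for Ly6a. Neither passed limma's test (adjusted p = 0.414 for Clu and 0.486 for Ly6a). Each day is 1 library per set, so a day and a library cannot be told apart.

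Anxa3, a calcium-dependent phospholipid-binding annexin, was at 3.83, 3.10 and 2.53 FPKM in Bcathet, at 3.73, 4.72 and 2.40 FPKM in Cdx2het_Bcathet, and at 1.54, 1.23 and 0.954 FPKM in control. The lowest mutant library exceeded the highest control library. The mean was 3.39 ± 0.883 FPKM over the mutant libraries (SD, n = 6) and 1.24 ± 0.293 FPKM over the control libraries (SD, n = 3), a log2 fold change of 0.95 ± 0.18 (limma adjusted p = 0.0495). The call sat at the threshold: it held in 2 of the 9 fits that left out 1 library, those without the Cdx2het_Bcathet library of day 9 or day 10. Without the day-9 Cdx2het_Bcathet library the value was 0.87 ± 0.16 (adjusted p = 0.0234), and in the fit without a filter the call was lost (adjusted p = 0.0747). Neither set passed by itself, with 0.88 in Bcathet (adjusted p = 0.119) and 1.02 in Cdx2het_Bcathet (adjusted p = 0.0820).

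Plaur, the receptor for the protease urokinase and a member of the same protein fold family as Ly6a, was at 1.92, 2.16 and 2.06 FPKM in Bcathet, at 2.54, 2.26 and 2.31 FPKM in Cdx2het_Bcathet, and at 1.11, 0.781 and 0.537 FPKM in control. The 6 mutant libraries lay close together and above all control libraries. The mean was 2.21 ± 0.215 FPKM over the mutant libraries (SD, n = 6) and 0.810 ± 0.290 FPKM over the control libraries (SD, n = 3), and the log2 fold change of 0.84 ± 0.11 passed limma's test (adjusted p = 0.0179), as it did in 6 of the 9 fits that left out 1 library, and not without the control library of day 9 or day 10 or the Cdx2het_Bcathet library of day 8. Plaur rose in Cdx2het_Bcathet (0.91 ± 0.13, adjusted p = 0.0250), while in Bcathet the value was 0.76 ± 0.13 (adjusted p = 0.0790).

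Marcksl1, a protein that binds the membrane and the actin skeleton, was the most abundant marker in control libraries. It was at 44.4, 30.0 and 25.6 FPKM in Bcathet, at 39.7, 43.4 and 40.2 FPKM in Cdx2het_Bcathet, and at 18.8, 16.7 and 18.4 FPKM in control, with no overlap between mutant and control libraries. The log2 fold change over both sets was 0.99 ± 0.15 (limma adjusted p = 0.0281), and it passed in 3 of the 9 fits that left out 1 library, those without the Bcathet library of day 8 or day 10 or the Cdx2het_Bcathet library of day 9. Against control, Marcksl1 was at 1.15 ± 0.17 in Cdx2het_Bcathet (adjusted p = 0.0284) and at 0.82 ± 0.17 in Bcathet (adjusted p = 0.104).

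This value depends on how fragments were shared with copies of the gene. Marcksl1-ps4, a processed copy whose transcript is 89.9% identical to Marcksl1 over 306 bases, ran the other way, with 8.06 ± 2.99 FPKM in mutant libraries (SD, n = 6) and 15.8 ± 0.127 FPKM in control libraries (SD, n = 3). The transcript of Akr1c19, which holds a stretch 91.0% identical over 1061 bases, was at 28.5 ± 7.74 FPKM in mutant libraries and 37.7 ± 5.06 FPKM in control libraries. When the fragments of Marcksl1-ps4 were given to Marcksl1, with the copy's FPKM weighted by its shorter length, the sum was 38.7 ± 7.69 FPKM in mutant libraries and 20.8 ± 1.07 FPKM in control libraries, and the log2 fold change was 0.84 ± 0.15 (limma adjusted p = 0.0430). A plain sum of both FPKM values gave 0.39 ± 0.14, which did not pass (adjusted p = 0.179). That sum does not weight the copy by its shorter length, so it is not a sharing out of fragments. The call of Marcksl1 therefore held, near the threshold, when the fragments of Marcksl1-ps4 were given back by length. Neither sum took in Akr1c19, so the rise remains uncertain, and both sums were chosen after the values were seen.

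**Figure D2:**
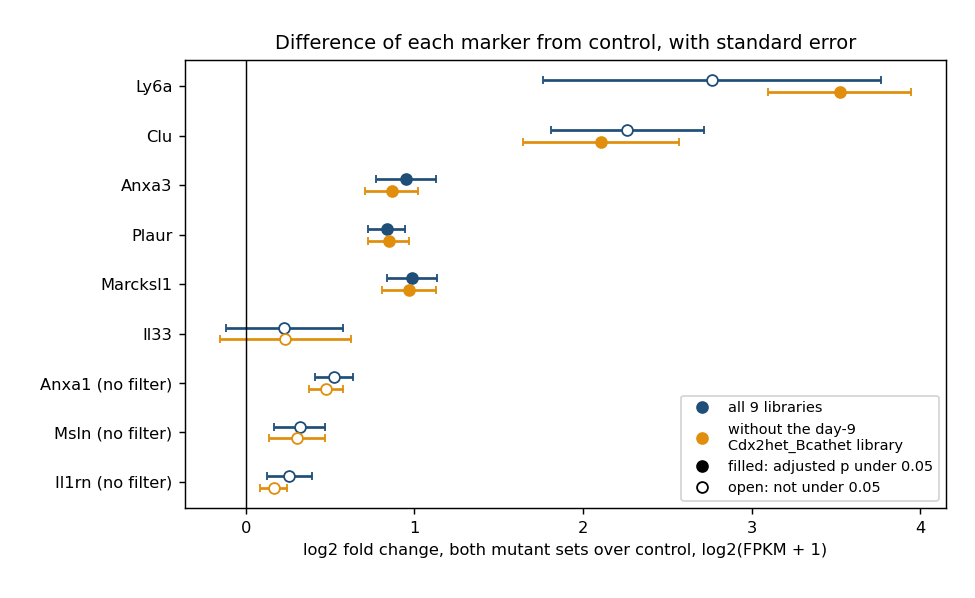
Log2 fold change of each marker, both mutant sets over control, on log2(FPKM + 1), with SE bars, from the fit to all 9 libraries (blue) and without the day-9 Cdx2het_Bcathet library (orange), filled where the adjusted p was under 0.05. Marcksl1, Anxa3 and Plaur passed in both fits, and Ly6a and Clu only without that library, with 3.52 and 2.11.

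Il33, an alarmin cytokine of the interleukin-1 family that barrier cells hold in the nucleus and release on damage, did not separate the sets. It was at 2.07, 2.10 and 4.54 FPKM in Bcathet, at 3.48, 4.83 and 6.99 FPKM in Cdx2het_Bcathet, and at 6.13, 1.81 and 2.25 FPKM in control. The control library of day 8 lay above 5 of the 6 mutant libraries, while the other control libraries lay below at least 4 of them. The log2 fold change over both sets was 0.23 ± 0.35 (limma adjusted p = 0.746), and 0.23 ± 0.39 without the day-9 Cdx2het_Bcathet library (adjusted p = 0.739). Per day, Il33 changed by 0.42 ± 0.15 in mutant libraries, and the slope in mutant minus that in control libraries was 0.99 ± 0.26, neither past the threshold (adjusted p = 0.759 for the first and 0.818 for the second).

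The remaining markers were near the limit of detection. Anxa1, an annexin that dampens inflammation, was at 0.514, 0.743 and 0.277 FPKM in Bcathet and at 0.478, 0.701 and 0.322 FPKM in Cdx2het_Bcathet, against 0.0435 and 0.0814 FPKM in the control libraries of days 8 and 9 and listed at 0 in that of day 10. Every mutant library exceeded every control library, but at an estimated 7 to 21 fragments, against at most 2.5. In the fit without a filter its log2 fold change was 0.52 ± 0.11 (limma adjusted p = 0.0919), where 0.406% of 19704 genes were called. Without the day-9 Cdx2het_Bcathet library as well it was 0.48 ± 0.10 (adjusted p = 0.0510), where 3.61% were.

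Msln (mesothelin, a surface protein of mesothelium that is also found in fetal-like gut epithelium) was at 0.879, 0.449 and 0.118 FPKM in Bcathet, at 0.334, 0.238 and 0.0295 FPKM in Cdx2het_Bcathet, and at 0.112, 0.0261 and 0.0269 FPKM in control. The day-10 mutant libraries were at the control level, and the sets overlapped. Without a filter the log2 fold change was 0.32 ± 0.15 (limma adjusted p = 0.345), or 0.31 ± 0.17 without the day-9 Cdx2het_Bcathet library (adjusted p = 0.350), and the slope in mutant libraries was −0.28 ± 0.05 per day (adjusted p = 0.799). Il1rn, the secreted antagonist of the interleukin-1 receptor, was at 0.534, 0.345 and 0.375 FPKM in Bcathet, at 0.228, 0.846 and 0.292 FPKM in Cdx2het_Bcathet, and at 0.0943, 0.330 and 0.155 FPKM in control. The sets overlapped here too, and the log2 fold change without a filter was 0.26 ± 0.14 (adjusted p = 0.383), or 0.17 ± 0.08 without the day-9 Cdx2het_Bcathet library (adjusted p = 0.284).

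Of the 6 markers tested, 3 rose over both mutant sets (Marcksl1, Anxa3 and Plaur) and none fell, where 1.16% of all tested genes were called in either direction and 0.513% as higher (62 genes higher and 78 lower, or 133 and 36 with libraries scaled to equal totals). This count was 0 without the control library of day 9 or day 10 or the Cdx2het_Bcathet library of day 8, and 1 without the control library of day 8 or the Bcathet library of day 9. Without the day-9 Cdx2het_Bcathet library 5 rose, where 8.29% of all tested genes were called and 4.65% as higher. In Bcathet alone 0 of 6 passed limma's test, where 0.215% of all tested genes were called, 0.124% as higher (26 genes in all, with 2015 at an unadjusted p under 0.05). Without the day-9 Cdx2het_Bcathet library Plaur was the 1 marker past the threshold in Bcathet, where 1.05% were called, 0.658% as higher. In Cdx2het_Bcathet alone Marcksl1 and Plaur rose, where 0.628% of all tested genes were called, 0.389% as higher, and without its day-9 library Ly6a joined them, where 4.03% were, 2.6% as higher. The count in Cdx2het_Bcathet was 1 without the control library of day 8, and 0 without the control library of day 9 or day 10, the Bcathet library of day 9 or the Cdx2het_Bcathet library of day 8 or day 10. All 6 mutant libraries exceeded all control libraries for 5 of the 9 markers, against 5.19% of the tested genes, and for 6 of 9 without the day-9 Cdx2het_Bcathet library, against 9.9%. Both of these counts include Anxa1, which did not pass the filter, while the percentages cover only genes that did. Only tested markers enter the counts of calls, and Clu, Plaur and Anxa3 passed the filter through the mutant libraries.

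The mutant sets did not differ from each other for any marker past the threshold. Clu had the largest difference of Cdx2het_Bcathet minus Bcathet among the 6, 1.36 ± 0.53 (limma adjusted p = 1.00), Il33 had 0.66 ± 0.40, Marcksl1 0.33 ± 0.17 and Ly6a 0.30 ± 1.16, all with the same adjusted p. With the day-9 Cdx2het_Bcathet library left out, the difference was 1.81 ± 0.53 for Ly6a (adjusted p = 0.942) and 1.05 ± 0.57 for Clu (adjusted p = 0.981). Over all tested genes 0% were called in this contrast (0 genes, with 376 at an unadjusted p under 0.05), and 0% for the slope over days in mutant libraries (0 genes, with 717) and for its difference from control (0 genes, with 696).

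By mean level per length, Marcksl1 at 33.3 and Ly6a at 31.0 FPKM led the Bcathet set, followed by Clu at 5.82, Anxa3 at 3.15, Il33 at 2.90 and Plaur at 2.05. In Cdx2het_Bcathet the order was Ly6a at 64.1, Marcksl1 at 41.1, Clu at 14.9, Il33 at 5.10, Anxa3 at 3.62 and Plaur at 2.37 FPKM. In control libraries Marcksl1 at 18.0 was followed by Il33 at 3.40, Ly6a at 3.38, Anxa3 at 1.24, Clu at 0.942 and Plaur at 0.810. Among neighbours in these orders, the libraries of Ly6a and Clu did not overlap in Bcathet, those of Marcksl1 and Clu and of Clu and Il33 did not in Cdx2het_Bcathet, and those of Marcksl1 and Il33 and of Ly6a and Anxa3 did not in control. The other neighbours named overlapped. Anxa1, Msln and Il1rn averaged at most 0.511 FPKM in any set.

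Genes whose pattern was most like that of each marker were found by Pearson's r on log2(FPKM + 1) over the 9 libraries, which share the set, the day and the outlying library. For Ly6a these were Golm1 (r = 0.991), Ltf (r = 0.990), which encodes the iron-binding defence protein lactoferrin, and Syne4 (r = 0.987). Ltf was at 2.83, 2.41 and 4.78 FPKM in Bcathet, at 6.20, 0.912 and 7.18 FPKM in Cdx2het_Bcathet, and at 0.881, 0.995 and 0.552 FPKM in control, with the same day-9 library at the control level. For Clu they were Slamf9 (r = 0.962), Ctxn1 (r = 0.959) and Tnfrsf19 (r = 0.957), the last a WNT-responsive receptor of crypt base cells also called Troy. For Anxa3 they were Calcoco1 (r = 0.976), Tmem131l (r = 0.969) and Ddr1 (r = 0.964), a collagen receptor. For Plaur they were Akr1b8 (r = 0.984), an aldo-keto reductase, Id1 (r = 0.972), a BMP-responsive inhibitor of differentiation, and Hyal2 (r = 0.963). For Marcksl1 they were Hdc (r = 0.964), which makes histamine, Vwa2 (r = 0.959) and Afap1l1 (r = 0.957), and for Il33 BC005537 (r = 0.969), Lrrc8d (r = 0.940) and Etnk1 (r = 0.934). No gene appeared beside more than 1 marker.

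**Figure D3:**
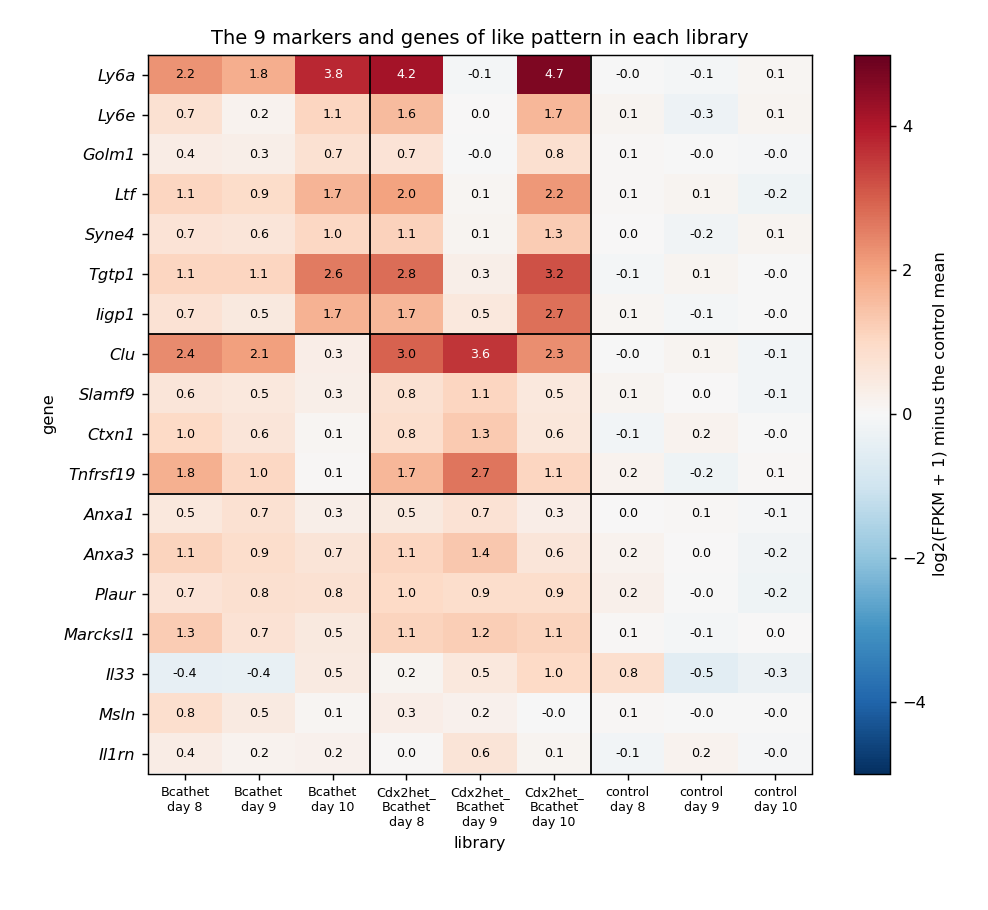
Log2(FPKM + 1) minus the control mean (colour and number in each cell) for the 9 markers and for genes of like pattern in each library, mutant sets left of control. Ly6a, Ly6e, Golm1, Ltf and Syne4 were near the control level in the day-9 Cdx2het_Bcathet library, where Clu, Slamf9, Ctxn1 and Tnfrsf19 had their highest values.

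Ly6a lies in a cluster of Ly6 genes. Ly6e, a neighbour that is itself induced by interferon, was at 324, 218 and 407 FPKM in Bcathet, at 575, 194 and 614 FPKM in Cdx2het_Bcathet, and at 213, 159 and 210 FPKM in control. It followed the order of Ly6a in the mutant libraries with a smaller change, 0.88 ± 0.38 over both sets (limma adjusted p = 0.237) and 1.14 ± 0.20 without the day-9 Cdx2het_Bcathet library (adjusted p = 0.0249). Gml2, another neighbour, named after its values were seen, was at 0.847, 0.775 and 4.46 FPKM in Bcathet and at 2.14 and 8.63 FPKM in Cdx2het_Bcathet on days 8 and 10, and was listed at 0 on day 9; in control it was at 0.172 and 0.0832 FPKM on days 8 and 10 and listed at 0 on day 9. Ly6m did not share this pattern, with 7.78 to 22.0 FPKM in mutant libraries and 16.1 to 38.7 FPKM in control libraries. Nor did Ly6c1, which was above every control library in all mutant libraries. It was at 0.617 to 2.30 FPKM in mutant libraries, with 0.849 in the day-9 Cdx2het_Bcathet one, and at most 0.458 FPKM in control libraries. Its log2 fold change over both sets was 0.90 ± 0.24 (limma adjusted p = 0.0964). Of 24 listed genes of the Ly6 and uPAR family other than the markers, 10 were tested and 0 passed limma's test. Without the day-9 library 2 rose, Ly6e and Lypd8 (0.79 ± 0.12, adjusted p = 0.0159), a secreted protein that keeps bacteria off the colon epithelium. In that fit 4.65% of all tested genes were called as higher.

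Interferon-induced genes had their highest sums in the mutant libraries with the most Ly6a. All 27 listed genes were tested and all 27 had a positive log2 fold change over both mutant sets. Their median was 0.58 beside −0.0017 over all tested genes. Only 1 passed limma's test: Ifitm3, a membrane protein that blocks virus entry (0.76 ± 0.14, adjusted p = 0.0458). In that fit 0.513% of all tested genes were called as higher. When the day-9 Cdx2het_Bcathet library was left out 10 rose, in a fit where 4.65% of all tested genes were called as higher, led by the immunity-related GTPases Tgtp1 (2.29, adjusted p = 0.0208) and Iigp1 (1.59, adjusted p = 0.0361), the nucleic acid sensor Zbp1 (1.50, adjusted p = 0.0431) and Bst2 (0.99, adjusted p = 0.0171), which tethers viruses to the cell. Summed over the list, the level was 946, 1107 and 1336 FPKM in Bcathet, 1721, 987 and 1752 FPKM in Cdx2het_Bcathet, and 846, 855 and 865 FPKM in control. The libraries with the highest sums were those with the most Ly6a, and the day-9 Cdx2het_Bcathet library, with the lowest Ly6a, had the second-lowest sum of the 6. Sums over other lists did likewise: that of the Ly6 and uPAR family, most of it Lypd8, was 5919, 6240 and 6470 FPKM in the 3 mutant libraries with the most Ly6a and lowest in the day-9 Cdx2het_Bcathet library at 2268 FPKM, and that of the interleukin-1 family and receptors was 275, 261 and 308 FPKM in those 3 and lowest in the same day-9 library at 169 FPKM. Whether interferon had a part in the level of Ly6a was not tested.

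Other markers of fetal and regenerating epithelium rose in part. Of 22 listed genes 14 were tested and 3 rose over both sets: Areg, an EGF receptor ligand (1.53 ± 0.27, limma adjusted p = 0.0487), S100a11, a calcium-binding partner of annexins (0.77 ± 0.13, adjusted p = 0.0418), and the keratin Krt7 (0.49 ± 0.07, adjusted p = 0.0167). With all libraries 1.16% of all tested genes were called, 0.513% as higher. The median over the 14 was 0.46. Areg was at 4.14, 7.66 and 10.5 FPKM in Bcathet, at 6.69, 8.35 and 8.99 FPKM in Cdx2het_Bcathet, and at 2.46, 1.05 and 2.52 FPKM in control, above control in every mutant library, the day-9 Cdx2het_Bcathet one included. Without that library 4 rose, with Tnfrsf12a, the receptor for TWEAK, added (0.51, adjusted p = 0.0492), and Ccnd2, a D-type cyclin, fell by 1.67 (adjusted p = 0.00266). That fit called 8.29% of all tested genes, 4.65% as higher.

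Of 18 listed YAP target genes 8 were tested, or 7 without the day-9 Cdx2het_Bcathet library. In either fit 0 passed limma's test, and the median over both sets with all libraries was 0.19. The fit to all libraries called 1.16% of all tested genes, 0.513% as higher. Among the annexins and their partners, 10 of 14 listed were tested: S100a11 was the 1 that rose, and without the day-9 library Anxa4 fell by 0.29 on the log2 scale (adjusted p = 0.0288). Around Plaur, 6 of 14 listed genes of plasminogen activation were tested and 0 passed in either fit, with a median of 0.10. Plau, the ligand of Plaur, chosen for that role with its values known, was at most 0.184 FPKM in mutant libraries and 0.0729 in control libraries. Around Il33 and Il1rn, 16 of 20 listed interleukin-1 family members, receptors and adaptors were in the table and 7 were tested, with 0 past the threshold. Without the day-9 library 3 of these rose, Il18bp, a decoy for interleukin-18 (1.94, adjusted p = 0.0410), and the adaptors Irak4 and Myd88 (0.59, adjusted p = 0.0183, and 0.51, adjusted p = 0.00757), and Il1rap, the shared receptor chain, fell by 0.60 (adjusted p = 0.0314). The fit without that library called 8.29% of all tested genes, 4.65% as higher. Il1rl1, the receptor for Il33, chosen in the same way, was at most 0.222 FPKM in mutant libraries and 0.152 in control libraries. The rows of S100a11, Anxa2, Anxa5, Anxa8 and Ly6g each stand in more than 1 list.

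Promoters of 5 of the 9 markers were found in RefSeq (GRCm38.p6). The sequences of Plaur, Marcksl1 and Anxa1 are shown because their genes were higher in all 6 mutant libraries than in every control library. Each gives the 250 bases before the start site, 5′ to 3′ on the strand of the gene. Capitals mark matches, on either strand, to motifs of factors known for this programme: TGANTCA (AP-1), GGAATG (TEAD, the partners of YAP), CTTTGAT (TCF/LEF), TTCNNNGAA (STAT) and GAAA, any 2 bases and GAAA (interferon response).
Plaur (chr7:24462233-24462482, plus strand): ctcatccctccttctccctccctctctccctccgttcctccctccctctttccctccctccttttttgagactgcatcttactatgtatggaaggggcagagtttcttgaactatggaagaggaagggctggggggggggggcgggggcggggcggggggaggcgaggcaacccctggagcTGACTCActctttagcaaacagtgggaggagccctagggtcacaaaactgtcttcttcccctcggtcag
Marcksl1 (chr4:129513331-129513580, plus strand): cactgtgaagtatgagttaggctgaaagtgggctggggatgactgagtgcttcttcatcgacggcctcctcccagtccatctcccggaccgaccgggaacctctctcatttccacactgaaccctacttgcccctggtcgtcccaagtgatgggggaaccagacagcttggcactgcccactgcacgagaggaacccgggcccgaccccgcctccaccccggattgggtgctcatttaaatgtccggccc
Anxa1 (chr19:20390672-20390921, minus strand): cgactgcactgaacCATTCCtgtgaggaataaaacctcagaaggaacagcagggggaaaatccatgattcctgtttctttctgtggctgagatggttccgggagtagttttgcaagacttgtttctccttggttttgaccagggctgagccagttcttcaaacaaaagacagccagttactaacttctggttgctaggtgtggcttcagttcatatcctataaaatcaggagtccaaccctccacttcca
Plaur held 1 AP-1 match, which 6.73% of 32536 promoters of that length also hold, Anxa1 held 1 TEAD match on the reverse strand, which 12.6% hold, and Marcksl1 held none of the 5. TCF/LEF matches stand in 3.21%, STAT matches in 7.04% and interferon response matches in 2.98% of the promoters. The promoters of Il33 and Il1rn, whose levels overlapped between mutant and control libraries, held such matches too. Each of 2 Il33 promoters held 1 TEAD match. Among 3 Il1rn promoters, 1 held an AP-1 match and another 1 a TEAD match. All these matches describe letters in the sequence and not binding.

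Several markers are also made by cells outside the epithelium, and fewer cells of a type and less RNA per cell cannot be told apart in such bulk samples. Msln is a marker of mesothelium, the outer lining of the gut, whose other listed markers did not all follow it. Of the 7 listed mesothelial genes without Msln, the sum was 2.20 to 3.84 FPKM in mutant libraries and 0.725 to 1.50 FPKM in control libraries, with Upk1b the most abundant. Upk1b was at 2.22, 2.47 and 2.36 FPKM in Bcathet, at 2.45, 1.01 and 2.14 FPKM in Cdx2het_Bcathet, and at 1.29, 0.651 and 0.799 FPKM in control, and was not low at day 10. Without Upk1b, left out after its values were seen, the sum was 1.39, 1.37 and 0.143 FPKM in Bcathet, 0.623, 1.26 and 0.0637 FPKM in Cdx2het_Bcathet, and 0.202, 0.0737 and 0.224 FPKM in control. In both mutant sets this sum was lowest at day 10, as Msln was, while in control it was highest at day 10. Upk3b ranged over 0.0300 to 0.685 FPKM in mutant libraries and 0.0265 to 0.170 FPKM in control libraries, and Wt1 was listed at 0 in all control libraries and in both mutant libraries of day 10.

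Anxa1, Clu and Il33 are also known from fibroblasts, and Plaur and Il1rn from myeloid cells. Col3a1, a fibroblast collagen, was at 0.842, 1.58 and 0.0825 FPKM in Bcathet, at 0.214, 1.88 and 0.103 FPKM in Cdx2het_Bcathet, and at most 0.0362 FPKM in control. It was highest in the day-9 mutant libraries, as Anxa1 was. The 11 fibroblast and stroma genes summed to 49.7 to 103 FPKM in mutant libraries and 48.5 to 72.1 FPKM in control libraries, and to 3.95 to 21.2 FPKM and 6.94 to 8.01 FPKM without the most abundant. The 10 macrophage and dendritic cell genes summed to 11.5, 15.8 and 5.79 FPKM in Bcathet, 8.97, 12.8 and 5.15 FPKM in Cdx2het_Bcathet, and 6.48, 6.22 and 5.64 FPKM in control. The 8 neutrophil genes summed to 4.43 to 6.54 FPKM in mutant libraries and 3.84 to 4.96 FPKM in control libraries, and the 8 endothelial genes to 2.37 to 3.52 FPKM and 1.37 to 2.51 FPKM. Plaur was at 2.06 and 2.31 FPKM in the day-10 mutant libraries, where the macrophage sums were lowest of the mutant libraries. Clu was highest in the day-9 library with the most Col3a1. It was second-highest, at 14.0 FPKM, in the Cdx2het_Bcathet library of day 8, where Col3a1 was at 0.214 FPKM. In Bcathet, Clu was higher at day 8 than at day 9 (8.95 and 7.09 FPKM), while Col3a1 was higher at day 9. The part of these cells in the levels of the markers was not tested.

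**Figure D4:**
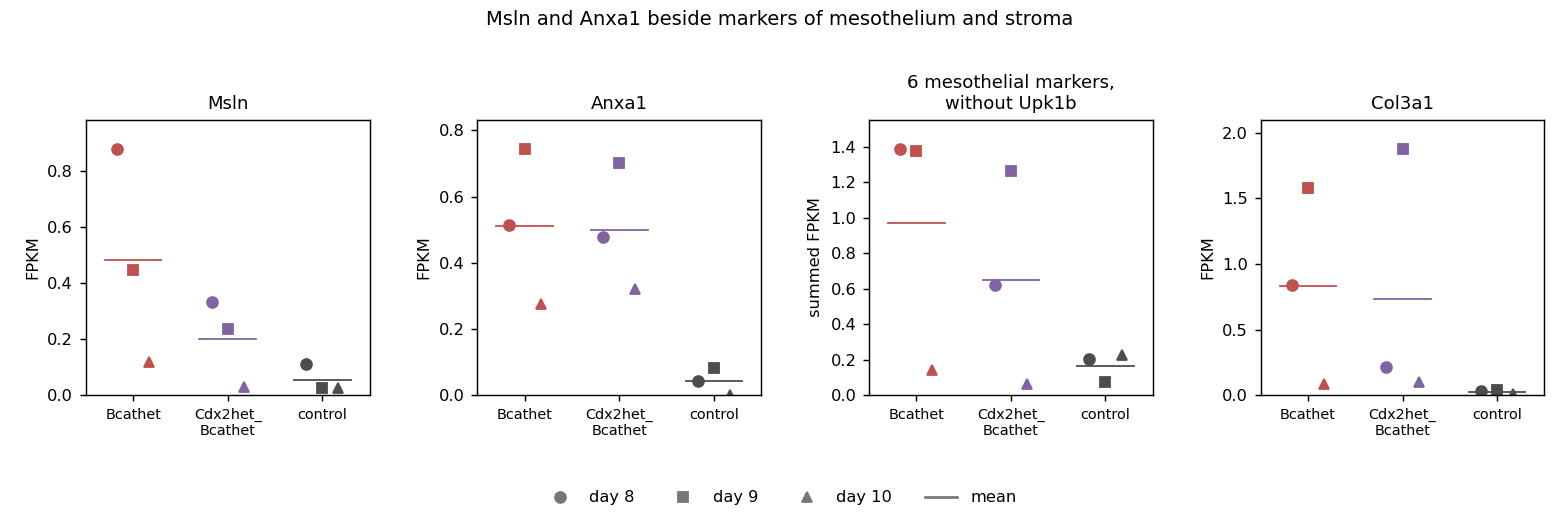
Msln, Anxa1, the sum of 6 mesothelial genes (the 7 listed without Upk1b, the most abundant) and Col3a1 (FPKM, linear axes starting at 0) in every library by set, with day 8 as circles, day 9 as squares, day 10 as triangles and lines at the mean of each set. Both mutant libraries of day 10 were the lowest of their set in all 4 panels, with 0.118 and 0.0295 FPKM of Msln; with Upk1b their mesothelial sums, at least 2.20 FPKM, were above all control libraries.

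T cell genes had their lowest sums at day 10 in each set, control included. Of 12 listed, 10 were used and  summed to 71.7, 80.5 and 21.1 FPKM in Bcathet, 51.6, 77.6 and 20.1 FPKM in Cdx2het_Bcathet, and 75.9, 98.0 and 57.0 FPKM in control, with 0 of 8 tested past limma's threshold. The 6 B and plasma cell genes summed to 3.18 to 4.77 FPKM in mutant libraries and 2.75 to 5.33 FPKM in control libraries. Epithelial genes (9 listed) summed to 6727 to 8135 FPKM in mutant libraries and 6719 to 7575 FPKM in control libraries. Of 10 genes of absorptive enterocytes 0 passed with all libraries, and Lct, the lactase of the brush border, fell by 3.45 without the day-9 Cdx2het_Bcathet library (adjusted p = 0.0277). Without that library 8.29% of all tested genes were called. Genes that respond to tissue dissociation summed to 574 to 642 FPKM in mutant libraries and 521 to 556 FPKM in control libraries, and 2 of 13 tested rose, Junb (0.80, limma adjusted p = 0.0133) and Ier3 (0.60, adjusted p = 0.0415), in the same direction as Plaur, Anxa3 and Marcksl1. The fit to all libraries called 0.513% of all tested genes as higher. The part of the dissociation genes was not tested.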

How the data were processed

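The values the authors deposited are FPKM, for 24930 gene symbols in 9 libraries. The unit was read from the values, which shrink with transcript length. Per the submitters' processing notes, kallisto 0.46.1, DESeq2 1.40.1 and the build mm9 were used, without a role for each; other steps are not stated in the labels. Depth was estimated from low values among 1800 long genes. The median of FPKM times effective length inside a preset window was taken as the worth of a fragment. Whether such values were lone fragments was not tested, and intervals for counting error were not computed.

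Limma 3.58.1 (R 4.3.3) was fitted to log2(FPKM + 1) of all 9 libraries as group means, with trend and robust options, for genes that reached 1 FPKM in 3 or more libraries. Tested on simulated data for the contrast of both mutant sets with control (10 simulations of 12097 genes, 200 changed), 85% of changes of 1 and 96.3% of changes of 2 on the log2 scale were found, with 4.6% false calls; the simulated libraries held no outlier. The slope over days was fitted in a further model. The members and lists were chosen with earlier results of these data known. Beside the markers, genes are named where they had the largest called changes of a list (up to 4), were most like a marker (3 each), lie beside Ly6a or define a cell type; the text says where others were picked after their values were seen. Sequence identity came from blastn of GENCODE M21 transcripts and promoters from RefSeq, both of another build than mm9. Some listed genes were not matched and not used here.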

Additional observations from a re-analysis of the deposited data

How the results depend on the processing

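The count of markers called over both mutant sets was 3, and 2 without a filter (Anxa3 lost), with equal totals or with a plain sum of Marcksl1 and its copy, 1 with a filter of 5 FPKM, 5 with library weights and 0 to 5 when 1 library was left out; it was 0 without control replicate 2, control replicate 3 or Cdx2het_Bcathet replicate 1, and 1 without control replicate 1 or Bcathet replicate 2. For Bcathet it was 0, and 0 to 1 when 1 library was left out. For Cdx2het_Bcathet it was 2, and 1 with a filter of 5 FPKM, with equal totals or with a plain sum of Marcksl1 and its copy, 5 with library weights and 0 to 3 when 1 library was left out. With library weights, whose estimation stopped before it converged, 4 markers passed for the slope in mutant libraries. The causes were not tested, except that a filter of 5 FPKM leaves fewer markers. With libraries scaled to equal totals, 133 of 169 called genes over both sets were higher, against 62 of 140. Changed directions were all in values that did not pass. Leaving out 1 library gave Il33 −0.0302 to 0.64 over both sets and −0.38 to 0.31 in Bcathet. For Cdx2het_Bcathet minus Bcathet it gave Ly6a −0.58 to 1.81 and Anxa3 −0.0362 to 0.34; without a filter and without Cdx2het_Bcathet replicate 2, Anxa3 was at −0.0362 and Il1rn at −0.17. For the slope in mutant libraries it gave Ly6a −0.24 to 1.57 and Plaur −0.0469 to 0.0326, and Plaur was at 0.0207 with library weights. For the slope of mutant minus control it gave Ly6a −0.30 to 1.52 and Anxa3 −0.14 to 0.0626, and Anxa3 was at 0.0202 with a pseudocount of 0.1. Days as a replicate block gave 3 markers over both sets, 0 in Bcathet and 2 in Cdx2het_Bcathet, there Clu (adjusted p = 0.0484) and Anxa3 (0.0449) in place of Plaur and Marcksl1 (0.0506 each). Mutant and control libraries of the same day did not deviate together (r = −0.236 to 0.0702), while the mutant sets had r = −0.0178, 0.398 and 0.615 with each other on days 8, 9 and 10, so not every pair was above 0.1 and the days were not taken to pair the libraries. Low levels limit Anxa1, Msln and Il1rn.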
